A study of Mus musculus with 6 samples.

Results

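The genes described here are the nuclear-encoded subunits of the mitochondrial oxidative phosphorylation complexes, measured by mRNA sequencing in immortalized mouse embryonic fibroblasts (iMEF) with and without Nrdc, the metalloendopeptidase nardilysin. Members were taken by symbol: every gene whose symbol starts with Ndufa, Ndufb, Ndufc, Ndufs, Ndufv, Uqcr, Cox4 to Cox8 or Atp5, together with Sdha, Sdhb, Sdhc and Sdhd. This gave 91 of the 22369 genes in the table, of which 42 carry complex I symbols, 4 complex II, 8 complex III, 19 complex IV and 18 complex V. The rule works on symbols and uses no measured value. The rule also takes in Ndufaf1 to Ndufaf4, which are complex I assembly factors, and Cox4nb, Atp5s, Atp5sl and the pseudogene Atp5l-ps1, which are not subunits. Ndufa4, named for complex I, is now placed in complex IV.

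The 3 groups had 2 libraries each. Rescue cells were Nrdc-/- iMEF infected with a lentivirus that expresses wild-type Nrdc (Nrdc-/-WT), KO cells were Nrdc-/- iMEF, and WT cells were Nrdc+/+ iMEF. All 3 were of the C57BL/6 strain by their labels and were grown without synchronization in low glucose DMEM with 10% fetal bovine serum. No KO cells infected with an empty virus are among the libraries, so infection and Nrdc re-expression cannot be told apart in Rescue v.s. KO. How many independent lines stand behind each genotype is not given in the sources used here, so a difference between lines and a difference between genotypes cannot be told apart, and the p-values measure only the spread between these libraries. Values are RPKM, read counts divided by library size and gene length, which puts genes on a scale per length. The length used covers all exons of a gene, so for 27 members with long or many transcripts levels are understated beside other genes, and orders of level between members hold only on this scale.

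Between 16385565 and 19764315 reads fell on the listed genes of a library. Nrdc, listed under its older symbol Nrd1, measured 5.89 and 5.397 RPKM in Rescue, 1.53 and 1.51 RPKM in KO and 27.9 and 28.9 RPKM in WT, lowest in KO as its label says and lower in Rescue than in WT. These values are of mRNA, and the study's immunoblots and immunocytochemistry showed similar Nrdc levels in Rescue and WT cells. Of 9 fibroblast markers, 8 exceeded 1 RPKM in every library and their summed level was 5965 to 5994 RPKM in Rescue, 5232 to 5275 RPKM in KO and 3680 to 4110 RPKM in WT. Summed markers of muscle, epithelium, endothelium, adipocytes and germ cells each stayed below 5 RPKM in every library, and the macrophage list, in which Ptprc was at most 0.0199 RPKM and Emr1 at 0, stayed below 12 RPKM. In bulk RNA a smaller share of cells of one kind and less RNA per cell cannot be told apart. The part of these marker differences in the results below was not tested.

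Oxidative phosphorylation is carried out by 5 complexes of the inner mitochondrial membrane. Complexes I and II pass electrons from NADH and succinate to ubiquinone, complex III passes them on to cytochrome c, and complex IV hands them to oxygen. Complexes I, III and IV pump protons as they do so, and complex V, the ATP synthase, uses the gradient to make ATP. Complexes I, III, IV and V are each assembled from products of the nuclear and of the mitochondrial genome, while complex II is entirely nuclear-encoded. The table lists 0 genes of the mitochondrial genome, so the subunits made there were not analysed here.

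To see whether the nuclear-encoded genes differed between KO and WT cells, a linear model was fitted across 11598 genes, those that averaged 0.5 RPKM or more over the libraries, 84 of the 91 members among them. A gene was called when its adjusted p was below 0.05 and its fold change at least 1.3. Among the 84 members, 32 were higher in KO, 8 were lower and 44 were not called, that is 38.1% higher and 9.52% lower. Over all genes tested, 62.1% were called, 32% higher and 30.2% lower. The median log2 fold change of the members was 0.21, against 0.0094 over all genes. The members thus had nearly the share of higher calls that all genes had and a smaller share of lower ones.

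Gene length moved with this count. Members are short, the 84 tested having a median length of 1328 bases against 3632 over all genes tested, and in the whole table short genes were higher in KO. Genes of up to 800 bases had a median log2 fold change of 0.47, with 50% called higher and 9.35% lower, whereas the 23 members of that length had a median of 0.21, with 10 called higher and 2 lower. Among genes of over 3000 bases the median was 0.042 in the 15 members and -0.062 in all genes. With the length trend taken off each library, an alternative added after seeing the data, 20 members were higher in KO and 16 lower, and the median was 0.050. Of the 40 calls, 28 were kept and 8 genes were added. The source of the length trend was not tested.

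**Figure D1:**
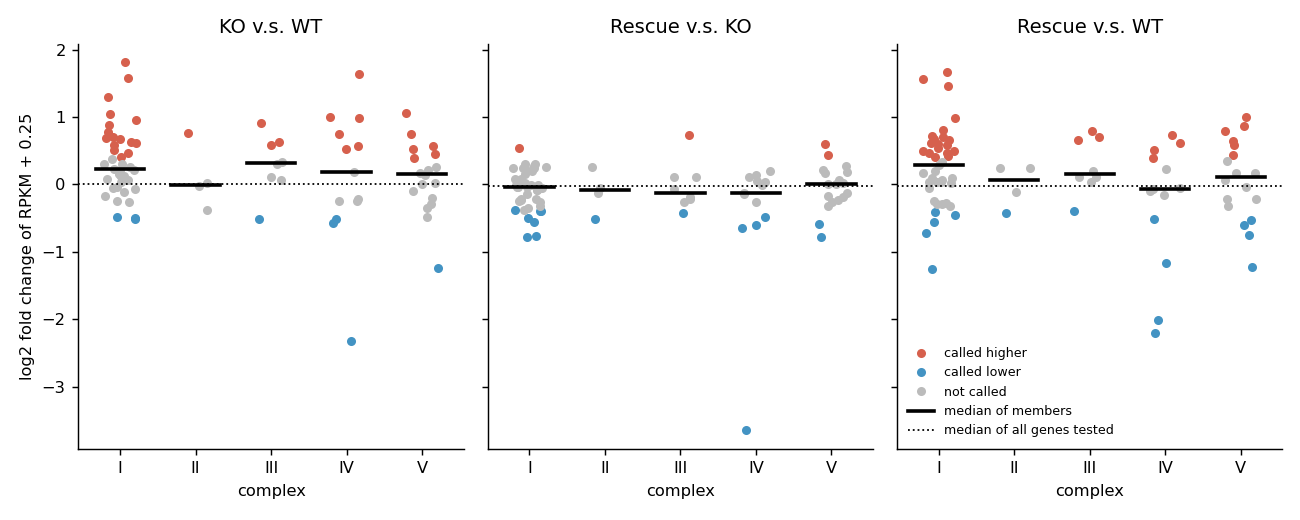
Log2 fold change of each of the 84 members tested, by complex, in KO v.s. WT, Rescue v.s. KO and Rescue v.s. WT. Points are genes coloured by call, the thick line is the median of the members of a complex and the dotted line the median of all genes tested; in KO v.s. WT called genes lie on both sides in complexes I, III, IV and V, with medians of 0.22, 0.32, 0.19 and 0.15.

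The promoters of oxidative phosphorylation genes are known for sites of NRF1, of ETS factors such as GABP, and of YY1. A promoter from RefSeq (GRCm38.p6, 250 bases before to 50 after the start) was matched to 74 members, 80 promoters in all. On either strand, the letters GCGCATGC of the NRF1 site were in 13.8% of them, CCGGAAG of the ETS site in 21.3% and AAGATGGC of the YY1 site in 15%, against 2.71%, 8.86% and 2.75% of 32851 promoters in the table. Of the 21263 promoters of protein-coding genes among these, 3.52%, 11.6% and 3.05% held the letters. The YY1 letters were found in promoters of complexes I and V and in none of complexes II, III and IV. A further 41 members held none of the 3. In KO v.s. WT, 3 of 11 tested members with the NRF1 letters were higher and 2 lower, 7 of 17 with the ETS letters higher and 1 lower, and 5 of 11 with the YY1 letters higher and the other 6 not called, beside 15 higher and 4 lower of 37 with none. A match is a description of the sequence and was not tested as a binding site.

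The promoters of the members with the largest fall and the largest rise in KO v.s. WT, Cox7a2l (chr17:83514284-83514583, minus strand) and Ndufv3 (chr17:31519865-31520164, plus strand), are shown because neither holds any of the 3 motifs. Those of Cox6a1 (chr5:115348909-115349208, minus strand) and Ndufc1 (chr3:51408906-51409205, minus strand), 2 members higher in KO, are shown for the NRF1 and ETS letters in the first and the YY1 letters in the second. Capitals mark motif letters, on either strand, and all are written 5′ to 3′ on the strand of the gene in GRCm38.p6.
Cox7a2l: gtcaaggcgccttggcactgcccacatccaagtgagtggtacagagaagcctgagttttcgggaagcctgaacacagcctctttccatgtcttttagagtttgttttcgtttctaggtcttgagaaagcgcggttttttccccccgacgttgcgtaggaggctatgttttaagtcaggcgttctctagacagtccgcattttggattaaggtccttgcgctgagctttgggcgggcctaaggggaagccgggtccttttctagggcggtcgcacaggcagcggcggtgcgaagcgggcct
Ndufv3: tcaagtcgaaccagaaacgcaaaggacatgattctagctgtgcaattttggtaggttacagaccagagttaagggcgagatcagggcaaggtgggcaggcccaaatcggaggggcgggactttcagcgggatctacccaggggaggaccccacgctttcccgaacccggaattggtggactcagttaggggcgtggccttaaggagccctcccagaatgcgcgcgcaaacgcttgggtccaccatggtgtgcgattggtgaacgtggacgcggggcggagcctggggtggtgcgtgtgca
Cox6a1: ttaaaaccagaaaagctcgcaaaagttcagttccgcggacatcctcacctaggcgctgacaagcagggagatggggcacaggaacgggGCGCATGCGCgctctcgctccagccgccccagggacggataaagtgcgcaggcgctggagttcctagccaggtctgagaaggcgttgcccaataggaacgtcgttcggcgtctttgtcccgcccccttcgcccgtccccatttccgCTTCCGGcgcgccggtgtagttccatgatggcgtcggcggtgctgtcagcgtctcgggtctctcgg
Ndufc1: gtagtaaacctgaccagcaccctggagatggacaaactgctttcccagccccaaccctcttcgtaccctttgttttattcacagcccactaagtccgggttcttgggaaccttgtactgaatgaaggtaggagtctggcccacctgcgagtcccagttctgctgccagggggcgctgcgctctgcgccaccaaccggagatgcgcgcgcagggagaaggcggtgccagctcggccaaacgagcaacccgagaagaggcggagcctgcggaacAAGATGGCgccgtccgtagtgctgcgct
In Cox6a1 the first run of capitals holds the NRF1 letters on each strand, overlapping, and the second the ETS letters on the other strand. Ndufc1, a small subunit of the complex I membrane arm chosen here for its motif, measured 28.01 and 25.4 RPKM in Rescue, 29.97 and 32.2 RPKM in KO and 16.2 and 17.1 RPKM in WT (log2 0.89 ± 0.07 in KO v.s. WT, adjusted p = 1.19e-05).

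The summed level of all 91 members was nearly level between the lines, at 6288 and 6357 RPKM in Rescue, 6419 and 6613 RPKM in KO and 6475 and 6455 RPKM in WT. Without Cox7a2l the sum was 6117 and 6179 RPKM in Rescue, 6257 and 6453 RPKM in KO and 5711.5 and 5609 RPKM in WT. Both WT libraries then lay below all KO and Rescue libraries. The complexes differed from one another beneath these sums. Complex I summed to 2124 and 2073 RPKM in Rescue, 1979 and 2056 RPKM in KO and 1766 and 1743 RPKM in WT, so that both KO libraries and both Rescue libraries lay above both WT libraries. Complex IV ran the other way, with 1619 and 1502 RPKM in Rescue, 1677 and 1787 RPKM in KO and 2011 and 2072 RPKM in WT. That order was set by 1 gene: without Cox7a2l, complex IV summed to 1449 and 1324 RPKM in Rescue, 1515 and 1627 RPKM in KO and 1248 and 1226 RPKM in WT. Complex III summed to 577 ± 11.9 RPKM in Rescue, 579.8 ± 14.7 RPKM in KO and 502 ± 11 RPKM in WT (SD, n = 2 each). Complex V, at 1769 and 2035 RPKM in Rescue, 1999.7 and 1985 RPKM in KO and 2007 and 1938 RPKM in WT, did not separate the lines. Its sum includes the pseudogene Atp5l-ps1. Over the subunits alone it was 1681 and 1900 RPKM in Rescue, 1851 and 1873 RPKM in KO and 1813 and 1775 RPKM in WT. Both KO libraries then lay above both WT libraries, with 1 Rescue library below and 1 above all of these.

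**Figure D2:**
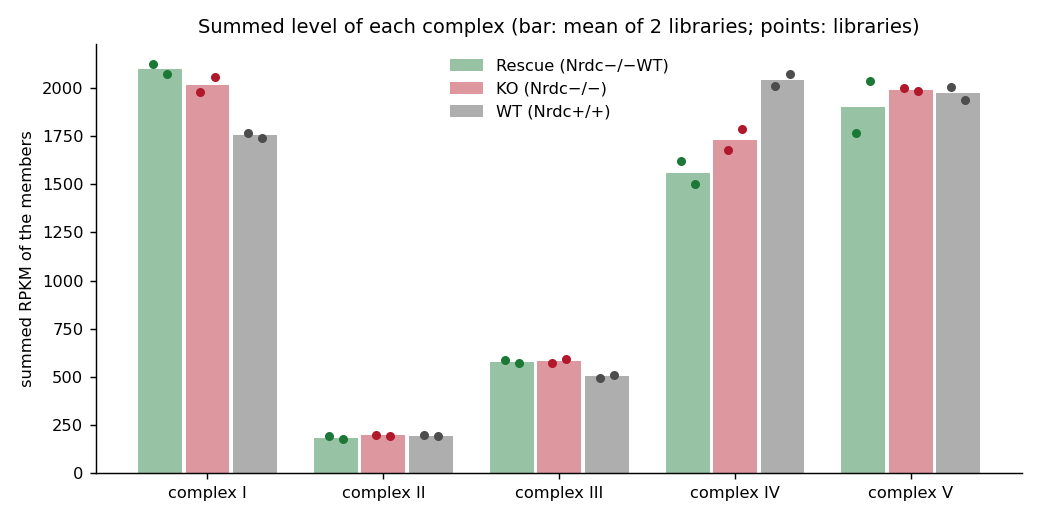
Summed RPKM of the members of each complex in Rescue, KO and WT. Bars are means of 2 libraries and points are the libraries; complex I is higher in Rescue and KO than in WT, with 1743 RPKM as the lowest WT library, and complex IV is lower, with 2072 RPKM as the highest WT library.

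Complex I is an L-shaped enzyme whose N module binds NADH, whose Q module reduces ubiquinone and whose membrane arm pumps protons. Of its 41 tested members, 16 were higher in KO than in WT, 3 were lower and 22 were not called, and the log2 fold changes ran from -0.52 to 1.81 with a median of 0.22. The higher calls lay mainly in the membrane arm, where 11 of 20 nuclear-encoded subunits were higher and 1 was lower (median 0.46), against 3 higher and 1 lower of 10 in the N module (0.18) and 1 of 6 in the Q module (0.097). Among the 7 core subunits, which carry the catalytic centres, 1 was higher (median 0.076), and among the 29 accessory subunits 14 were higher and 2 lower (median 0.37). Over the 11598 genes fitted, higher calls made up 32% and lower calls 30.2% in KO v.s. WT. Among genes of up to 800 bases these shares were 50% and 9.35%, with a median of 0.47. The membrane arm, at 55% and 5%, lay near those short genes. Whether the modules differ from one another was not tested, nor was the part of gene length in the module, core and accessory counts.

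Ndufv3, an accessory subunit of the N module, whose promoter held none of the 3 motifs, had the largest increase of any member in KO v.s. WT. It measured 37.6 and 35.2 RPKM in Rescue, 46.4 and 46.5 RPKM in KO and 13.7 and 12.5 RPKM in WT. No 2 lines overlapped, and Rescue lay nearer to KO. The log2 fold change in KO v.s. WT was 1.81 ± 0.07 (SE, adjusted p = 1.07e-07). Ndufb7, an accessory subunit of the membrane arm that faces the intermembrane space, measured 15.9 and 17.3 RPKM in Rescue, 15.6 and 15.7 RPKM in KO and 5.398 and 4.74 RPKM in WT. Rescue lay close to KO, and the log2 fold change in KO v.s. WT was 1.58 ± 0.09 (adjusted p = 9.13e-07). Ndufb10, another membrane arm subunit, behaved in the same way: it measured 70.1 and 67.7 RPKM in Rescue, 66.7 and 77.2 RPKM in KO and 32.6 and 36.9 RPKM in WT, and rose by 1.04 ± 0.09 on the log2 scale in KO v.s. WT (adjusted p = 1.17e-05).

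The assembly factors of complex I caught by the rule moved apart. Ndufaf3, which acts early in the build of the Q module, measured 6.21 and 7.99 RPKM in Rescue, 4.99 and 6.73 RPKM in KO and 3.04 and 1.59 RPKM in WT (log2 fold change 1.297 ± 0.27 in KO v.s. WT, adjusted p = 0.00225). Ndufaf4, its partner, measured 4.88 and 4.26 RPKM in Rescue, 8.52 and 7.48 RPKM in KO and 10.2 and 12.3 RPKM in WT, 3 levels without overlap. Its log2 fold change was -0.48 ± 0.12 in KO v.s. WT (adjusted p = 0.00646) and -0.78 ± 0.12 in Rescue v.s. KO (adjusted p = 8.05e-04). The KO v.s. WT call of Ndufaf4 was lost without KO replicate 2 (log2 -0.39), without WT replicate 2 (-0.35) and with chromosome medians taken off (-0.13). Ndufaf1 and Ndufaf2 were not called in KO v.s. WT, with log2 fold changes of 0.22 and 0.17.

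Among the N module genes, Ndufa12, an accessory subunit, was lower in both lines that carry the deletion: it measured 38.3 and 34.99 RPKM in Rescue and 36.8 and 38.5 RPKM in KO, against 58.1 and 50.2 RPKM in WT (log2 -0.52 ± 0.08 in KO v.s. WT, adjusted p = 5.82e-04). Ndufa12 lies on chromosome 10, where 561 tested genes had a median of -0.43, and its value was -0.087 with chromosome medians taken off. Ndufs1, the largest core subunit and a carrier of iron-sulphur clusters, separated Rescue from the other lines. It measured 17.7 and 18.8 RPKM in Rescue, 32.2 and 30.3 RPKM in KO and 30.2 and 30.4 RPKM in WT, a log2 fold change of -0.77 ± 0.07 in Rescue v.s. KO (adjusted p = 2.99e-05). In KO v.s. WT it was 0.04 ± 0.07 and not called. On chromosome 1, where Ndufs1 lies, the median over 646 tested genes was -0.38 in Rescue v.s. KO, and the 6 members there had a median of -0.45. With chromosome medians taken off, Ndufs1 was -0.42 in Rescue v.s. KO and was still called, while the 5 tested genes within 1 Mb of it had a median of -0.88, with 3 lower.

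Complex II, succinate dehydrogenase, also serves the citric acid cycle. Sdha, the flavoprotein, measured 44.9 and 43.3 RPKM in Rescue, 46.3 and 44.96 RPKM in KO and 60.2 and 58.2 RPKM in WT. Both lines with the deletion lay below WT. The log2 fold change was -0.42 ± 0.06 in Rescue v.s. WT, where it was called (adjusted p = 2.16e-04), and -0.37 ± 0.06 in KO v.s. WT, which did not reach the fold of 1.3. With chromosome medians taken off, the Rescue v.s. WT value became 0.011 and the call was lost. Sdhb, the iron-sulphur subunit, measured 45.5 and 44.5 RPKM in Rescue, 37.4 and 37.4 RPKM in KO and 39.8 and 36.5 RPKM in WT and was called in no comparison. Sdhc, a membrane anchor, was the only member of complex II called in KO v.s. WT: it measured 23.9 and 22.7 RPKM in Rescue, 33.2 and 33.5 RPKM in KO and 19.4 and 19.8 RPKM in WT. The log2 fold change was 0.76 ± 0.06 in KO v.s. WT (adjusted p = 8.67e-06) and -0.51 ± 0.06 in Rescue v.s. KO (adjusted p = 1.81e-04), the second a call lost with chromosome medians taken off (-0.17). Sdhd, the other anchor, with the highest RPKM of the 4, measured 76.1 and 67.04 RPKM in Rescue, 77.9 and 78.3 RPKM in KO and 76.7 and 77.6 RPKM in WT and was called in no comparison. The summed level of the complex was 184 ± 9.12 RPKM in Rescue, 194 ± 0.457 RPKM in KO and 194 ± 2.88 RPKM in WT (SD, n = 2 each). Both Rescue libraries, at 190.4 and 177 RPKM, lay below the 4 others, which ran from 192 to 196 RPKM.

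Complex III, the cytochrome bc1 complex, had 3 members higher in KO than in WT and 1 lower of 8 (median 0.32). That was 37.5% and 12.5%, beside 32% higher and 30.2% lower over all genes tested. The 3 higher ones were the small subunits Uqcrq (0.91), Uqcrb (0.62) and Uqcr10 (0.58 on the log2 scale), which are named here after their values were seen. The lower one was Uqcrc1, a core protein with the highest mean level of the complex over all libraries. It measured 107 and 104 RPKM in Rescue, 96.2 and 98.4 RPKM in KO and 137 and 139 RPKM in WT, with Rescue and KO both below WT (log2 -0.51 ± 0.05 in KO v.s. WT, adjusted p = 5.11e-05). Uqcrh, the hinge protein that lies by cytochrome c1, was the member most increased in Rescue v.s. KO. It measured 89.9 and 85.4 RPKM in Rescue, 53.4 and 52.1 RPKM in KO and 47.6 and 53.2 RPKM in WT, so that Rescue stood apart from the other 2 lines (log2 0.73 ± 0.07 v.s. KO, adjusted p = 5.43e-05). The 25 tested genes within 1 Mb of Uqcrh had a median of 0.47 in the same comparison.

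Complex IV, cytochrome c oxidase, held the member with the largest decrease in KO v.s. WT. Cox7a2l encodes a relative of subunit 7a that joins complexes III and IV in supercomplexes, and its promoter held none of the 3 motifs. It had the highest mean level of the complex over all libraries, measuring 170.4 and 178 RPKM in Rescue and 162 and 159.8 RPKM in KO, against 763 and 846 RPKM in WT. The WT libraries stood far above the other 4. The log2 fold change was -2.32 ± 0.07 in KO v.s. WT (adjusted p = 3.24e-08) and -2.20 ± 0.07 in Rescue v.s. WT (adjusted p = 6.40e-08), while Rescue v.s. KO was 0.11 ± 0.07 and not called. Cox7a2l made up 10.5% and 11.9% of the summed complex IV level in Rescue, 9.68% and 8.94% in KO and 37.9% and 40.8% in WT.

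The difference at Cox7a2l extended over its neighbours. Cox7a2l lies at chr17:83901259-83913673 (mm9, minus strand). Of the 13 other tested genes that start within 2 Mb of it, 10 were lower in KO than in WT, all by more than 1 on the log2 scale, 1 was higher and 2 were not called, with a median of -2.53. Thada measured 4.03 and 3.83 RPKM in Rescue, 5.09 and 5.11 RPKM in KO and 74.9 and 75.8 RPKM in WT. Lrpprc, which binds mitochondrial mRNAs and is needed for complex IV, measured 13.5 and 12.8 RPKM in Rescue, 15.96 and 14.3 RPKM in KO and 118 and 123 RPKM in WT, a log2 fold change of -2.97 ± 0.07 in KO v.s. WT. These neighbours were thus high in the same WT libraries. In Rescue v.s. KO the 13 had a median of 0.24, with 4 higher and 9 not called. In Rescue v.s. WT the median was -1.95, with 10 lower and 2 higher. Over the whole of chromosome 17 the median in KO v.s. WT was 0.29. What sets this stretch apart in WT was not tested.

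**Figure D3:**
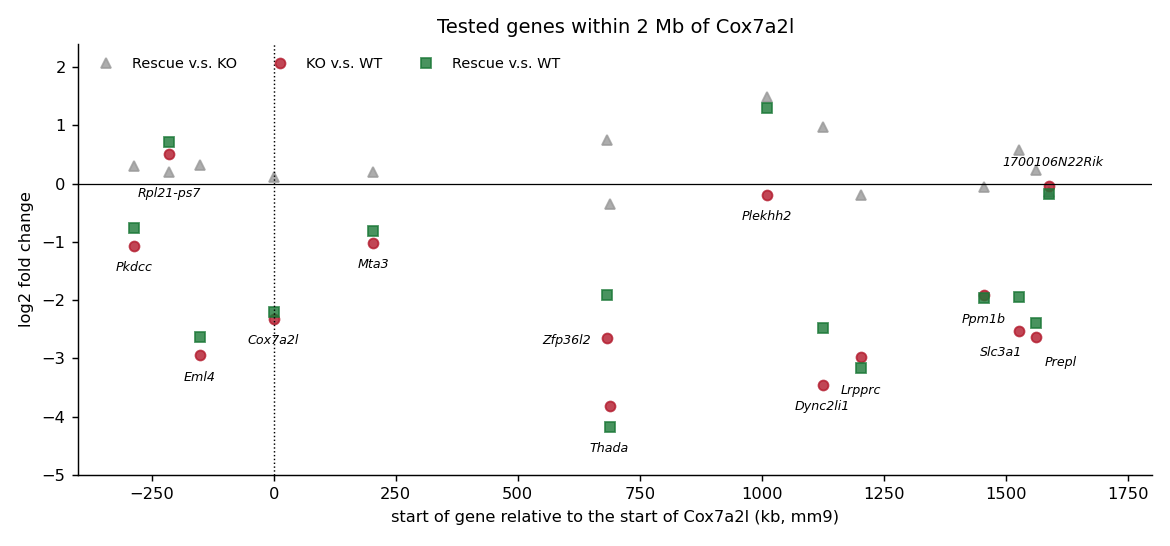
Log2 fold change of the tested genes that start within 2 Mb of Cox7a2l, against the distance of their start from that of Cox7a2l in kb. In KO v.s. WT (circles) and Rescue v.s. WT (squares), Cox7a2l and 10 of its 13 neighbours are lower than WT, while in Rescue v.s. KO (triangles) the median of the 13 is 0.24.

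The remaining ubiquitous subunits of complex IV moved both ways in KO v.s. WT. Cox5a, which sits on the matrix side, measured 76.6 and 68.97 RPKM in Rescue, 112 and 108 RPKM in KO and 161 and 166 RPKM in WT, with no overlap between any 2 lines. Its log2 fold change was -0.57 ± 0.07 in KO v.s. WT (adjusted p = 9.25e-05) and -0.60 ± 0.07 in Rescue v.s. KO (adjusted p = 1.39e-04). Cox5b, the zinc-binding subunit, was higher in KO: it measured 85.96 and 89.5 RPKM in Rescue, 129.8 and 144 RPKM in KO and 101 and 83.6 RPKM in WT (log2 -0.64 ± 0.10 in Rescue v.s. KO, adjusted p = 6.76e-04). It lies on chromosome 1, and the call was lost with chromosome medians taken off (-0.29). Ndufa4 was highest in Rescue, with 269 and 243 RPKM in Rescue, 177 and 174 RPKM in KO and 214 and 203 RPKM in WT (log2 0.54 ± 0.07 in Rescue v.s. KO, adjusted p = 2.85e-04). Cox4nb, which is Emc8 of the endoplasmic reticulum and no subunit, measured 7.51 and 8.14 RPKM in KO and 10.8 and 11.8 RPKM in WT (log2 -0.51 ± 0.09).

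Several subunits of complex IV come as a ubiquitous form and as forms bound to a tissue, and the ubiquitous forms carried nearly all of the reads. Cox4i1 measured 295 and 294 RPKM in Rescue, 243 and 271 RPKM in KO and 305 and 305 RPKM in WT and was called in no comparison, while Cox4i2, the lung form, was at 0 in all 6 libraries. Cox6a1 measured 276 and 256 RPKM in Rescue, 302 and 334 RPKM in KO and 162 and 159 RPKM in WT (log2 0.98 ± 0.07 in KO v.s. WT, adjusted p = 5.19e-06). Cox6b1 measured 104 and 94.2 RPKM in Rescue, 107 and 108 RPKM in KO and 74.01 and 76.05 RPKM in WT (log2 0.52 ± 0.06 in KO v.s. WT, adjusted p = 1.21e-04). In both genes Rescue and KO lay above WT. With the length trend taken off, Cox6b1 was 0.074 in KO v.s. WT and -0.031 in Rescue v.s. WT and was no longer called in either. The testis form Cox6b2 was at 0 throughout. Cox7a2 measured 129 and 114 RPKM in Rescue, 160.4 and 180.3 RPKM in KO and 79.8 and 91.1 RPKM in WT, with Rescue between the others (log2 0.99 ± 0.09 in KO v.s. WT, adjusted p = 2.39e-05). Its heart and muscle form Cox7a1 did not exceed 0.318 RPKM. Cox8a measured 293 and 234 RPKM in Rescue, 275 and 304 RPKM in KO and 179 and 165 RPKM in WT (log2 0.75 ± 0.11 in KO v.s. WT, adjusted p = 3.17e-04, or 0.32 and not called with the length trend taken off), whereas Cox8b had 1 read in 1 Rescue library and Cox8c none. Cox7b measured 67.2 to 89.5 RPKM over the 6 libraries and was called in no comparison.

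The exceptions among the tissue forms were few and low. Cox6a2, the heart and muscle form of subunit 6a, measured 0.214 and 0.163 RPKM in Rescue, 5.53 and 4.95 RPKM in KO and 1.42 and 1.62 RPKM in WT, with no overlap between any 2 lines. These values rest on 3 and 2 reads in Rescue, 63 and 59 in KO and 19 and 22 in WT. The rate in Rescue was 0.0363 of that in KO (95% exact interval 0.0116 to 0.0871) and the rate in KO 3.44 times that in WT (2.4 to 5.03), intervals that cover counting error only. The RPKM of Cox6a2 was at most 1.83% of that of Cox6a1 in any library. The muscle markers Ckm, Myog and Myod1 were at 0 in all libraries. The 13 muscle markers summed to 4.06 to 4.12 RPKM in Rescue, 0.911 to 0.970 RPKM in KO and 2.26 to 3.26 RPKM in WT. Tnnt2 alone measured 3.69 and 3.78 RPKM in Rescue, 0.366 and 0.449 RPKM in KO and 2.93 and 2.01 RPKM in WT and set that order. The other 12 summed to 0.433 and 0.284 RPKM in Rescue, 0.546 and 0.521 RPKM in KO and 0.329 and 0.241 RPKM in WT, highest in KO as Cox6a2 was, and their part in the Cox6a2 result was not tested. Cox7b2, a testis form, had 19 and 8 reads in the KO libraries and 0 in Rescue and WT, with germ cell markers summing to at most 0.222 RPKM. Ndufa4l2, a relative of Ndufa4 known to respond to low oxygen, had 2 and 3 reads in Rescue, 5 and 16 in KO and 4 in each WT library.

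Complex V is built of the catalytic F1 head, the stalks and the membrane part with its ring of c subunits. Of its 18 members, 6 were higher in KO, 1 was lower and 11 were not called, and the log2 fold changes ran from -1.24 to 1.06 (median 0.15). That was 33.3% higher and 5.56% lower, beside 32% and 30.2% over all genes tested. The share of higher calls was thus near that of all genes, and the share of lower calls was smaller. The F1 subunits, with those of the central stalk counted among them, had a median of -0.20 over 5 genes. The peripheral stalk subunits had a median of 0.30 over 4 genes. Atp5d, the delta subunit of the central stalk at the foot of F1, accounted for the 1 lower call: it measured 33.97 and 35.5 RPKM in Rescue, 32.9 and 35.9 RPKM in KO and 86.3 and 77.2 RPKM in WT. Rescue and KO overlapped and both lay below WT, with a log2 fold change of -1.23 ± 0.08 in Rescue v.s. WT (adjusted p = 2.06e-06) and -1.24 ± 0.08 in KO v.s. WT (adjusted p = 1.63e-06). Its 67 tested neighbours within 1 Mb on chromosome 10 had a median of -0.55 in KO v.s. WT. Atp5h, subunit d of the peripheral stalk, measured 117 and 133 RPKM in Rescue, 144 and 141 RPKM in KO and 71.1 and 65.8 RPKM in WT, and was higher in KO v.s. WT by 1.06 ± 0.08 (adjusted p = 4.57e-06), beside a median of 0.56 over its 41 neighbours.

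A pair of further peripheral stalk genes was higher in Rescue than in KO. Atp5o, the oligomycin sensitivity-conferring protein, measured 58.2 and 61.2 RPKM in Rescue, 38.97 and 39.4 RPKM in KO and 30.7 and 29.01 RPKM in WT, 3 levels without overlap (log2 0.60 ± 0.06 in Rescue v.s. KO, adjusted p = 7.35e-05). Atp5j, coupling factor 6, measured 38.6 and 38.5 RPKM in Rescue, 28.7 and 28.04 RPKM in KO and 25.2 and 23.95 RPKM in WT (log2 0.44 ± 0.06 in Rescue v.s. KO, adjusted p = 3.76e-04). Both lie on chromosome 16, where 368 tested genes had a median of 0.085 in this comparison, and Atp5j was no longer called with chromosome medians taken off (0.32). Nearer by, the 22 tested genes within 1 Mb of Atp5o had a median of 0.45, with 13 higher and 1 lower, and the 5 near Atp5j a median of 0.49, with 3 higher. Atp5j shares 397 exon bases with Gabpa on the other strand and Atp5o shares exon bases with 3 genes, and whether the counts used strand is not given in the sources used here, so reads of such pairs cannot be told apart.

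The c ring is made from one mature protein encoded by 3 genes. Atp5g2 supplied 54.7% and 55.3% of their summed RPKM in Rescue, 54.8% and 57.6% in KO and 57.0% and 55.9% in WT, and Atp5g3 most of the rest. Atp5g1 supplied 4.39% and 4.16% in Rescue, 7.84% and 7.29% in KO and 6.16% and 6.25% in WT. These shares depend on the length used, which was 7.10 times the median coding transcript for Atp5g1, 3.04 times for Atp5g3 and 1 times for Atp5g2. Per median transcript length, Atp5g3 had the largest share of reads, 59.1% and 59.2% in Rescue, 50.6% and 49.3% in KO and 52.6% and 53.4% in WT. Atp5g1 then had 14.9% and 14.2% in Rescue, 24.9% and 24% in KO and 20.6% in each WT library, so on both scales its share was lowest in Rescue and highest in KO. Atp5g1 measured 15.1 and 13.7 RPKM in Rescue, 25.2 and 24.5 RPKM in KO and 17.7 and 18.4 RPKM in WT, with a log2 fold change of -0.77 ± 0.07 in Rescue v.s. KO (adjusted p = 4.50e-05). Atp5g2 measured 188 and 183 RPKM in Rescue, 176 and 194 RPKM in KO and 164 and 164 RPKM in WT, and Atp5g3 141 and 134 RPKM in Rescue, 120.0 and 118 RPKM in KO and 106 and 111 RPKM in WT. Neither was called in any comparison. Atp5l, subunit g of the membrane part, had the highest RPKM of the complex, at 310.2 and 521 RPKM in Rescue, 467 and 475 RPKM in KO and 476 and 455 RPKM in WT. Its Rescue libraries differed by more than any 2 groups did, and without Rescue replicate 2 it was called lower in Rescue v.s. KO (-0.60) and in Rescue v.s. WT (-0.59). Its coding sequence has 8 near-identical copies in the genome, and the pseudogene Atp5l-ps1, at 80.6 and 128 RPKM in Rescue, 142 and 105 RPKM in KO and 187 and 156 RPKM in WT, is counted as a gene of its own and called lower in Rescue v.s. WT (-0.75 ± 0.22, adjusted p = 0.0133), though not without Rescue replicate 1 (-0.41) or WT replicate 1 (-0.61), so how reads were split between them is uncertain.

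**Figure D4:**
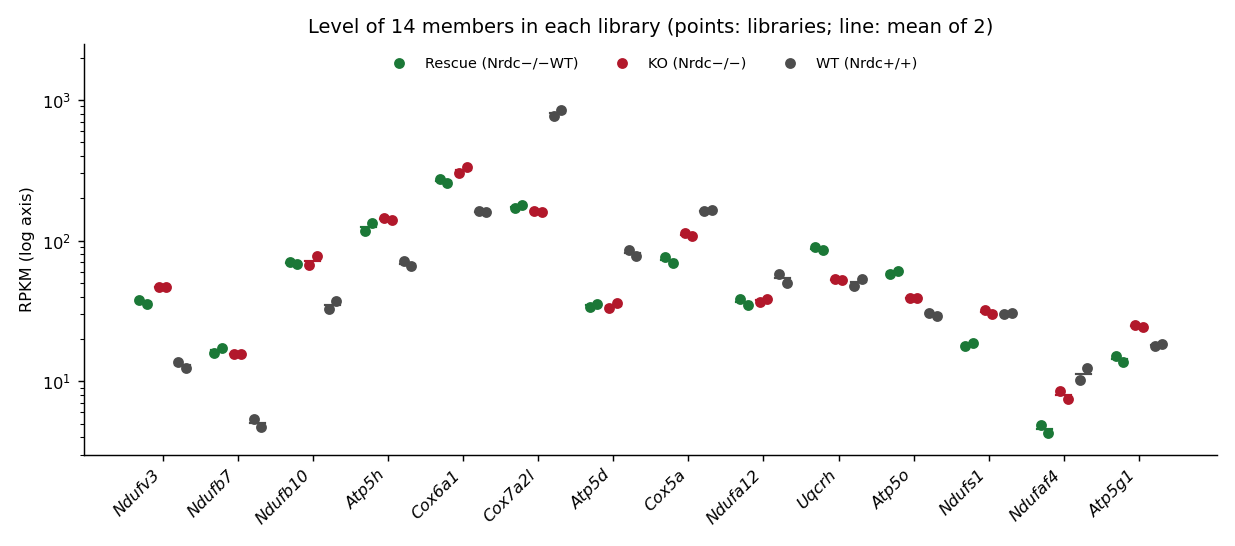
RPKM of 14 members in each library of Rescue, KO and WT, on a log axis. Points are libraries and lines are means of 2; Cox7a2l at 763 and 846 RPKM in WT stands above the other lines, Ndufv3 and Ndufb7 are lowest in WT, and Uqcrh and Atp5o are highest in Rescue.

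Rescue v.s. KO compared Nrdc-/- cells with and without reintroduced Nrdc, where infection, Nrdc re-expression and any difference between lines cannot be told apart. Fewer genes were called in this comparison: 43.2% of all genes, 20.5% higher and 22.7% lower. Of the 84 members, 4 were higher in Rescue (4.76%) and 15 lower (17.9%), with a median of -0.044 against -0.023 over all genes. The 4 higher ones were Uqcrh, Atp5o, Ndufa4 and Atp5j. By complex, the lower calls counted 7 of 41 in complex I, 1 of 4 in II, 1 of 8 in III, 4 of 13 in IV and 2 of 18 in V. With chromosome medians taken off, 12 of the 19 calls were kept in the same direction and 3 genes were added.

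The members differed between Rescue and WT about as often as between KO and WT. Rescue cells had been infected and had less Nrdc mRNA than WT cells, and these and any difference between lines cannot be told apart. In Rescue v.s. WT, 32 members were higher and 15 lower (38.1% and 17.9%), beside 60.4% of all genes called, 29.9% higher and 30.6% lower, and the median was 0.17 against -0.019. Complex I had 19 higher and 5 lower of 41 (median 0.29), complex II 1 lower of 4 (0.063), complex III 3 and 1 of 8 (0.16), complex IV 4 and 4 of 13 (-0.070) and complex V 6 and 4 of 18 (0.12). With the length trend taken off, 18 members were higher and 21 lower, and the median became 0.012. With chromosome medians taken off, 27 of the 47 calls were kept, 3 genes had the other sign and 12 were added. The comparisons share libraries, so they are set side by side and not tested against each other. Cox7a2l, for instance, was -2.32 in KO v.s. WT, 0.11 in Rescue v.s. KO and -2.20 in Rescue v.s. WT, and Ndufb7 1.58, 0.08 and 1.66. Cox5a and Ndufaf4 were called lower in all 3.

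The likeness of a member to its neighbours was not limited to Cox7a2l. For the 81 members with at least 3 tested genes starting within 1 Mb, the log2 fold change in KO v.s. WT and the median of those neighbours had a Pearson correlation of 0.67 across genes, against 0.29 over 11147 genes of the table. In Rescue v.s. WT the correlations were 0.61 and 0.27. In Rescue v.s. KO they were 0.35 and 0.31, so there the members were little different from all genes. The 81 members include Cox7a2l, and no correlation without it was computed. Genes are not independent replicates, and all points share the same 6 libraries. Of the 40 called members, 35 had the sign of their neighbours' median (87.5%), against 65.6% of all called genes with such neighbours. For Ndufb7 the 26 neighbours had a median of 0.86, with 19 higher and 2 lower. Ndufv3 and Cox6a2 stood apart from theirs, whose medians were 0.13 over 12 genes and -0.10 over 43 genes. With chromosome medians taken off, 31 of the 40 calls were kept and 10 genes were added, giving 34 higher and 7 lower.

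**Figure D5:**
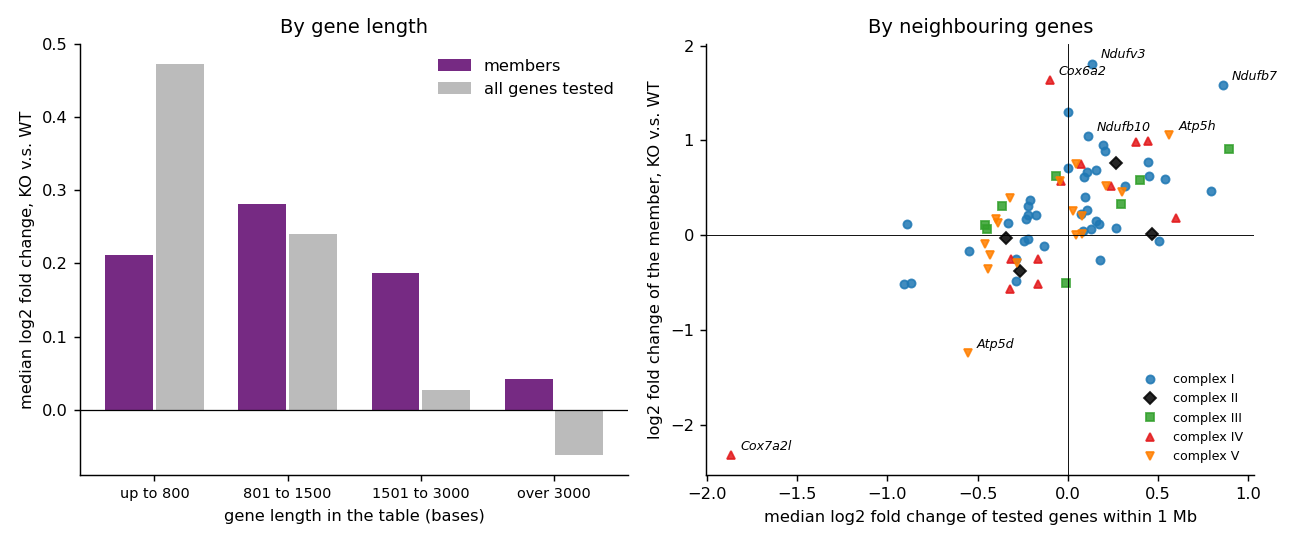
Left, median log2 fold change in KO v.s. WT by gene length for the members and for all genes tested, which reach 0.21 and 0.47 in genes of up to 800 bases. Right, log2 fold change of each of 81 members against the median of the tested genes that start within 1 Mb, with symbols for the complexes; Cox7a2l lies at the lower left at -2.32 and -1.86.

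Annotation also bears on the levels. RPKM values were divided by the length covered by all exons of a gene, and for 27 members this length was more than 2 times the median of its coding transcripts, 7.26 times for Ndufb7 and 7.10 times for Atp5g1. Comparisons between lines are not affected by this as long as the lines use the same transcripts, which was not tested. Near-identical copies elsewhere in the genome, with at least 95% identity over at least 80% of the coding sequence, were found for 22 members, among them Atp5h, Ndufa12, Cox5b and Atp5g1. Of the 62 tested members with no such copy, 24 were higher and 7 lower in KO v.s. WT, and of the 22 with one, 8 were higher and 1 lower.

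Among the factors that drive mitochondrial gene expression, lower calls outnumbered higher ones. Of 15 tested regulators of mitochondrial biogenesis, 1 was higher in KO than in WT and 8 were lower, with a median of -0.45. In Rescue v.s. WT 2 were higher and 10 lower (median -0.47), and in Rescue v.s. KO 2 and 2 (0.011). The list thus had 6.67% higher and 53.3% lower calls in KO v.s. WT, and 13.3% and 66.7% in Rescue v.s. WT. Over the 11598 genes fitted, higher calls made up 32% and lower calls 30.2% in KO v.s. WT. Those background shares were 29.9% and 30.6% in Rescue v.s. WT, and 20.5% and 22.7% in Rescue v.s. KO. Tfam, which packages mitochondrial DNA and starts its transcription, measured 6.301 and 6.51 RPKM in Rescue, 5.89 and 5.51 RPKM in KO and 12.7 and 12.2 RPKM in WT (log2 -1.09 ± 0.08 in KO v.s. WT). Yy1 measured 26.7 and 26.1 RPKM in Rescue, 21.5 and 21.7 RPKM in KO and 42.99 and 48.4 RPKM in WT (-1.07 ± 0.07). Tfb2m, a mitochondrial transcription factor, measured 8.32 and 7.03 RPKM in Rescue, 11.2 and 10.1 RPKM in KO and 16.8 and 17.1 RPKM in WT (-0.66 ± 0.10), and Mterfd3, now Mterf2, 3.29 and 3.101 RPKM in Rescue, 1.88 and 1.54 RPKM in KO and 4.82 and 4.22 RPKM in WT (-1.29 ± 0.13). All 4 were lower in both lines with the deletion than in WT. The part of the chromosome and neighbour patterns given above in these values was not tested.

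In KO v.s. WT, complex IV assembly factors had 4 higher and 2 lower of 17 (median 0.066), those of complex V 2 higher of 5 (0.26), those of complex III 2 higher of 4 (0.39), and complex I assembly factors outside the symbol rule 1 and 1 of 6 (0.15). Of 3 complex II assembly factors, 0 were called by limma, 1 had an unadjusted p under 0.05 and limma voom called 0. All genes tested had 32% higher and 30.2% lower calls in the same comparison. Higd1a, which binds complex IV and responds to low oxygen, measured 10.4 and 12.2 RPKM in Rescue, 47.9 and 44.4 RPKM in KO and 13.4 and 13.2 RPKM in WT, so that it was high in KO alone (log2 1.77 ± 0.09 in KO v.s. WT and -2.01 ± 0.09 in Rescue v.s. KO). Ccdc56, now Coa3, was higher in both lines with the deletion, at 53.6 and 56.6 RPKM in Rescue and 59.8 and 73.4 RPKM in KO, against 32.6 and 28.8 RPKM in WT. In Rescue v.s. KO, 5 of the 6 complex I assembly factors outside the rule were lower and the other was not called (median -0.62). There, 22.7% of all genes tested were lower. Ecsit measured 9.21 and 10.4 RPKM in Rescue and 17.3 and 17.7 RPKM in KO (-0.82 ± 0.08), and Nubpl, which delivers iron-sulphur clusters, 0.578 and 0.519 RPKM in Rescue and 1.097 and 0.846 RPKM in KO (-0.61 ± 0.16). Nubpl, a low gene, was also lower in KO than in WT (-0.67) and changed most in Rescue v.s. WT (-1.28). Atpaf1, an F1 assembly factor, measured 5.62 and 6.34 RPKM in Rescue, 4.34 and 4.95 RPKM in KO and 2.68 and 2.87 RPKM in WT.

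Of 76 tested mitochondrial ribosomal proteins, 29 were higher in KO v.s. WT and 11 lower (median 0.26). That was 38.2% and 14.5%, beside 32% higher and 30.2% lower over all genes tested. The part of gene length in this count and in those of the lists below was not tested. Mrps28 measured 35.7 and 35.9 RPKM in Rescue, 48.1 and 56.4 RPKM in KO and 21.95 and 18.5 RPKM in WT, and Mrpl23 ran the other way with 2.85 and 2.38 RPKM in Rescue, 3.51 and 3.23 RPKM in KO and 6.74 and 8.45 RPKM in WT. The citric acid cycle list had 5 higher and 4 lower of 18 (0.19), and Idh3a measured 29.6 and 29.6 RPKM in Rescue, 37.2 and 39.5 RPKM in KO and 72.3 and 83.6 RPKM in WT. The carriers of adenine nucleotides and phosphate had 1 higher and 1 lower of 6 (0.075), with Slc25a5, the ADP/ATP carrier of dividing cells, at 120.4 and 119 RPKM in Rescue, 177 and 188 RPKM in KO and 257 and 273 RPKM in WT. Among the electron carriers, 0 of 5 were called in KO v.s. WT by limma (2 had an unadjusted p under 0.05 and limma voom called 0). In Rescue v.s. KO 1 was higher and 1 lower, and in Rescue v.s. WT 2 were higher and 3 lower. Of all genes tested, 43.2% and 60.4% were called in these comparisons, in that order. Cycs, cytochrome c, measured 19.6 and 19.5 RPKM in Rescue, 28.1 and 28.7 RPKM in KO and 24.8 and 29.4 RPKM in WT, with a log2 fold change of -0.53 ± 0.08 in Rescue v.s. KO (adjusted p = 8.63e-04).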

How the data were processed

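Poly(A) RNA of 6 iMEF libraries, 2 for each of Rescue (Nrdc-/-WT), KO (Nrdc-/-) and WT (Nrdc+/+), had been sequenced on the Ion Proton. Per the study's methods and the submitters' processing notes, the authors mapped reads to mm9 with STAR, mapped the remainder with Bowtie2, counted with featureCounts of Subread and computed RPKM with edgeR. The deposited table holds log2 RPKM values of 22369 genes in NCBIM37 coordinates. Their versions and strand settings are not known here.

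Values were raised back to RPKM. All low values were whole multiples of 1 read (100% within 0.05 of a read), which gave 16385565 to 19764315 reads per library on the listed genes. The fit was limma (version 3.58.1 in R 4.3.3) with a mean-variance trend on log2(RPKM + 0.25), all 6 libraries, genes averaging 0.5 RPKM or more, and Benjamini-Hochberg adjustment over all 11598 genes; errors beside log2 values are standard errors. Log2 fold changes are on this scale, which understates the change of low genes. Genes were called at an adjusted p below 0.05 with at least a 1.3-fold change. The script was tested on simulated data. Intervals on read counts are exact, at 95%, and cover counting error only.

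Alternatives were other pseudocounts and filters, the deposited values, scaling, voom on recovered reads, a fit on 2 groups, a replicate block, other thresholds, each library left out and, chosen after seeing the data, chromosome medians or the length trend taken off. The members and lists were chosen with earlier results of these data known. Members named were, per comparison, the 5 called higher and the 5 called lower with the largest changes, averaging 5 RPKM or more, without overlap between groups; all of complex II; the paralogue families; and the most abundant member of each complex. Up to 4 called genes of each other list were open to naming. Ndufc1, Uqcr10, Uqcrb, Uqcrq, Ndufaf1, Ndufaf2, Nrdc, the markers and the genes near Cox7a2l were named after their values were seen. The table holds no annotation of exons, so lengths, overlaps and copies (BLAST+ 2.17.0) came from the mm9 gene models and genome, and promoters from RefSeq (GRCm38.p6).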

Additional observations from a re-analysis of the deposited data

How the results depend on the processing

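The limits are the 2 libraries per group, the unknown number of lines behind a genotype, and the length, chromosome and neighbour patterns given above, whose sources were not tested. With the length trend taken off, 20 members were higher and 16 lower in KO v.s. WT and 18 were higher in Rescue v.s. WT. The medians then became 0.050 over all members, 0.078, -0.12, 0.14, -0.042 and 0.035 for complexes I to V in KO v.s. WT, -0.0062 for complex I in Rescue v.s. KO, and 0.012 over all members, 0.060, -0.029, 0.032, -0.38 and 0.018 for complexes I to V in Rescue v.s. WT. Cox6b1 in Rescue v.s. WT turned to -0.031. With chromosome medians taken off, the medians of complexes I, II and III became 0.26, 0.17 and 0.48 in KO v.s. WT. They became -0.070 over all members and -0.075, -0.014, -0.046 and -0.063 for complexes I, II, III and V in Rescue v.s. KO, and 0.24 over all members and 0.25, 0.17, 0.46 and 0.083 for complexes I to IV in Rescue v.s. WT. Sdha in Rescue v.s. WT turned to 0.011. The cause was not tested for either. With no fold minimum, 16 members were lower in KO v.s. WT, and 14 higher and 23 lower in Rescue v.s. KO. With libraries centred on the median, the medians were -3.86e-05 over all members and 0.0048 for complex I in Rescue v.s. KO, and 0.21 over all members and 0.34, 0.20 and 0.16 for complexes I, III and V in Rescue v.s. WT. Quantile normalization gave 0.051 for complex V in KO v.s. WT, 0.017 over all members and 0.037, -0.016, -0.061, -0.057 and 0.054 for complexes I to V in Rescue v.s. KO, and 0.19 over all members and 0.25, 0.14 and 0.23 for complexes I to III in Rescue v.s. WT. With all genes with a read, complex IV was 0.35 in KO v.s. WT, and in Rescue v.s. WT all members were 0.14 and complex I 0.25. With a mean of at least 5 RPKM, complex IV was -0.012 in KO v.s. WT and -0.063 in Rescue v.s. KO, and complex I 0.33 in Rescue v.s. WT. With subunits alone placed by their complex, complex I was 0.29 in KO v.s. WT and complex V 0.17 in Rescue v.s. WT.

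With 1 library left out in turn, KO v.s. WT had 30 to 33 members higher and 8 to 9 lower, with medians of 0.17 to 0.23 over all members, 0.22 to 0.31 in complex I, -0.032 to 0.023 in II, 0.26 to 0.38 in III, 0.090 to 0.28 in IV and 0.12 to 0.17 in V. Rescue v.s. KO had 4 to 5 higher and 11 to 15 lower, with medians of -0.073 to -0.00027, -0.074 to 0.011, -0.15 to -0.030, -0.19 to -0.037, -0.19 to -0.028 and -0.049 to 0.051 in the same order. Rescue v.s. WT had 29 to 32 higher and 15 to 16 lower, with medians of 0.14 to 0.17, 0.23 to 0.29, 0.0029 to 0.12, 0.16 to 0.22, -0.13 to -0.033 and -0.079 to 0.19. The replicate numbers did not pair the libraries: same-numbered libraries had deviations correlated at 0.0096, -0.10 and -0.031, and the fit with a replicate block kept 40 of 40, 19 of 19 and 47 of 47 member calls. Over the single named members, 1957 values kept their side of the threshold, 45 became called, 33 lost their call and 2 changed sign. A change of sign was counted only where the main fit or the alternative called the gene. Values called in neither may have changed sign.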
